A study of Mus musculus with 22 samples.

Results

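The 10 genes described here encode subunits of voltage-gated calcium channels. They are Cacna1a, Cacna1b, Cacna1e, Cacna1c, Cacna1d and Cacna1g for pore-forming α1 subunits, Cacna2d1 and Cacna2d3 for α2δ subunits, and Cacnb2 and Cacnb4 for β subunits. They were taken by name at their spans in release M21 of the GENCODE annotation (mm10, which is GRCm38), out of 21755 protein-coding genes that overlap a measured bin. No measured value was used as a filter, but earlier results of these data were known when the genes were chosen. The genes overlap 46 of the 26327 bins of 100 kb in which the 5-methylcytosine (5mC) level was given, and 13 of the 2641 bins of 1 Mb in which the 5-hydroxymethylcytosine (5hmC) level was given. The 500 kb on either side of each gene were read as its flanks.

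A voltage-gated calcium channel opens when the membrane is depolarized and lets calcium into the cell, where it triggers transmitter release, shapes firing and starts signals to the nucleus. The α1 subunit forms the pore and sets the channel class, the α2δ subunit sits on the outer face and helps to bring channels to the membrane, and the β subunit binds the α1 subunit from inside and tunes its gating. The P/Q-type pore of Cacna1a is best known from cerebellar Purkinje and granule cells, where Cacnb4 is its main β partner, and mutations of either gene cause ataxia in mice. 5mC is made by DNA methyltransferases, mainly at CpG sites, and TET enzymes oxidize it to 5hmC, a mark that is abundant in neurons and in the bodies of their active genes.

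Cortex, olfactory bulb and cerebellum of C57BL/6 mice of 8 weeks were compared, all untreated, and the study describes the mice as female and each replicate as an independent animal. OxBS-seq, which oxidizes 5hmC first so that 5mC alone is read as C after bisulfite conversion, gave the 5mC level in 7 libraries, 3 from cortex and 2 from each of the other tissues. TAB-seq, in which 5hmC is protected and 5mC is oxidized so that 5hmC alone is read as C, gave the 5hmC level in 3 libraries per tissue. Each level is a fraction from 0 to 1 for a whole bin and a whole tissue. The depth behind a bin is unknown, so the errors are SDs between libraries and leave counting error out. In such bulk tissue, more cells that carry a mark and more of the mark per cell cannot be told apart.

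The oxBS-seq library cortex 3 stood apart from the other cortex libraries, with a mean 5mC level over bins of 0.660 against 0.684 and 0.687. Libraries of olfactory bulb had means of 0.705 and 0.709, and those of cerebellum of 0.723 and 0.739. Across bins, Pearson's r was between 0.947 and 0.982 within a tissue and between 0.801 and 0.918 between tissues for 5mC, and between 0.994 and 0.998 against between 0.783 and 0.944 for 5hmC. As a check of the tissue labels, marker genes were read in the same way as the channel genes. The 5mC level was lowest in cortex for 5 of 5 markers of cortical excitatory neurons, in olfactory bulb for 6 of 7 markers of bulb neurons, and in cerebellum for 4 of 8 markers of granule and Purkinje cells, the other 4 being lowest in cortex. Dlx1 and Dlx2, Dlx5 and Dlx6, and Zic1 and Zic4 lie in the same bins, so these counts rest on 4 of 5 distinct values for the bulb and 3 of 7 for cerebellum. Of all genes called in 5mC, 96.8% were higher in olfactory bulb than in cortex and 92.8% higher in cerebellum than in cortex. A marker lowest in cortex is therefore the common case, and the cortex count says little about that label. Of the glial markers, 3 of 4 for oligodendrocytes and 4 of 4 for astrocytes were lowest in cortex, and the part of glial cells in the results below was not tested.

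The bins over the channel genes held between 5.24 and 17.04 CpG sites per kb, with a median of 9.015 against 7.51 over all 100 kb bins tested. Of the 10 genes, 8 had promoter windows in the RefSeq set for GRCm38.p6, 14 windows in all, and Cacna1a and Cacna1g had none there. The 250 bases before 4 of these starts are printed here, 5′ to 3′ on the minus strand on which all of these genes lie, with each CG in capitals because CG is where both marks were counted. They were taken from the 6 windows that overlap no annotated exon of a channel gene. The first precedes a start inside Cacnb4 (chr2:52558612-52558861) within the bin where cerebellar 5mC was lowest, the next a start inside Cacna1c (chr6:118757975-118758224) and the third a start inside Cacna1d (chr14:30353487-30353736), both within bins that were low in olfactory bulb, and the last one the start of Cacna1b (chr2:24763153-24763402), the gene whose 5mC rose most in cerebellum.
Cacnb4, window before the internal start: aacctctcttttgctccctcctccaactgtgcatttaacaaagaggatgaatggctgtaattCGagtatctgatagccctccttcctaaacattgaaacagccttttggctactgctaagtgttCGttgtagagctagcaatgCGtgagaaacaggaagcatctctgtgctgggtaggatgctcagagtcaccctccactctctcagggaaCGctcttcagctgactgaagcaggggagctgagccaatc
Cacna1c, window before the internal start: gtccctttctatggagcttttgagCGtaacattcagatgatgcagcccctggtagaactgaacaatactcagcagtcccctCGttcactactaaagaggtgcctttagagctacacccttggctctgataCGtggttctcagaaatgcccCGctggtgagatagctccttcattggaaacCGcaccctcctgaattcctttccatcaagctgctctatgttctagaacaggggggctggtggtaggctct
Cacna1d, window before the internal start: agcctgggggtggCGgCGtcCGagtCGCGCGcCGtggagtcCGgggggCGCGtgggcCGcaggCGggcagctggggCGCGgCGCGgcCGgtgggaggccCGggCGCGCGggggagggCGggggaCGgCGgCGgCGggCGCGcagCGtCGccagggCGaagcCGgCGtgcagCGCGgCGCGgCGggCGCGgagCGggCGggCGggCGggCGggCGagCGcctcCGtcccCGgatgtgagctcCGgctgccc
Cacna1b, window before the first start: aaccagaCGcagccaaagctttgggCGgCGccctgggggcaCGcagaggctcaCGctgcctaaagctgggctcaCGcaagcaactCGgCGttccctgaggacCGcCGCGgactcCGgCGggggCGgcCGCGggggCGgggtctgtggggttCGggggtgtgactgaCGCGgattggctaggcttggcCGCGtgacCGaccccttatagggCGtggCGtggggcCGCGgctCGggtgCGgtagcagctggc
The Cacnb4 and Cacna1c windows held 4 and 5 CG in 250 bases, while those of Cacna1d and Cacna1b held 50 and 29. Over the full windows of 300 bases, Cacnb4 held 5, Cacna1c 7, Cacna1b 35 and Cacna1d 63, against a median of 7 over 32851 promoters, of which 99.97% held fewer than the Cacna1d window. Each window is a small piece of a bin of 100 kb, and the levels given here belong to the bin and not to the window.

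The question of each comparison was how the marks over the channel genes differ between brain regions. The 5mC level of a gene is the mean over the 100 kb bins that it overlaps. Of these bins, between 63.0% (Cacna1a) and 96.2% (Cacnb2) is the gene itself, and those of Cacna1a also overlap 4 other genes. The level went different ways in different members, and Cacna1a had the lowest level of the 10 in cerebellum (0.426 ± 0.0100, SD, n = 2) while Cacnb2 had the highest (0.769 ± 0.00829). In cerebellum against cortex, 5 genes were higher (Cacna1b, Cacnb2, Cacna2d3, Cacna2d1 and Cacna1d) and 2 were lower (Cacna1a and Cacnb4), while Cacna1c, Cacna1e and Cacna1g did not pass the test. In olfactory bulb against cortex, 3 were higher (Cacna1b, Cacnb2 and Cacna2d3) and 2 lower (Cacna1c and Cacna1d). In cerebellum against olfactory bulb, 3 were higher (Cacna1d, Cacna2d1 and Cacna1c) and 2 lower (Cacna1a and Cacnb4). These calls are from limma on log2(level/(1 − level)) over 21718 genes, with an adjusted p-value under 0.05.

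**Figure D1:**
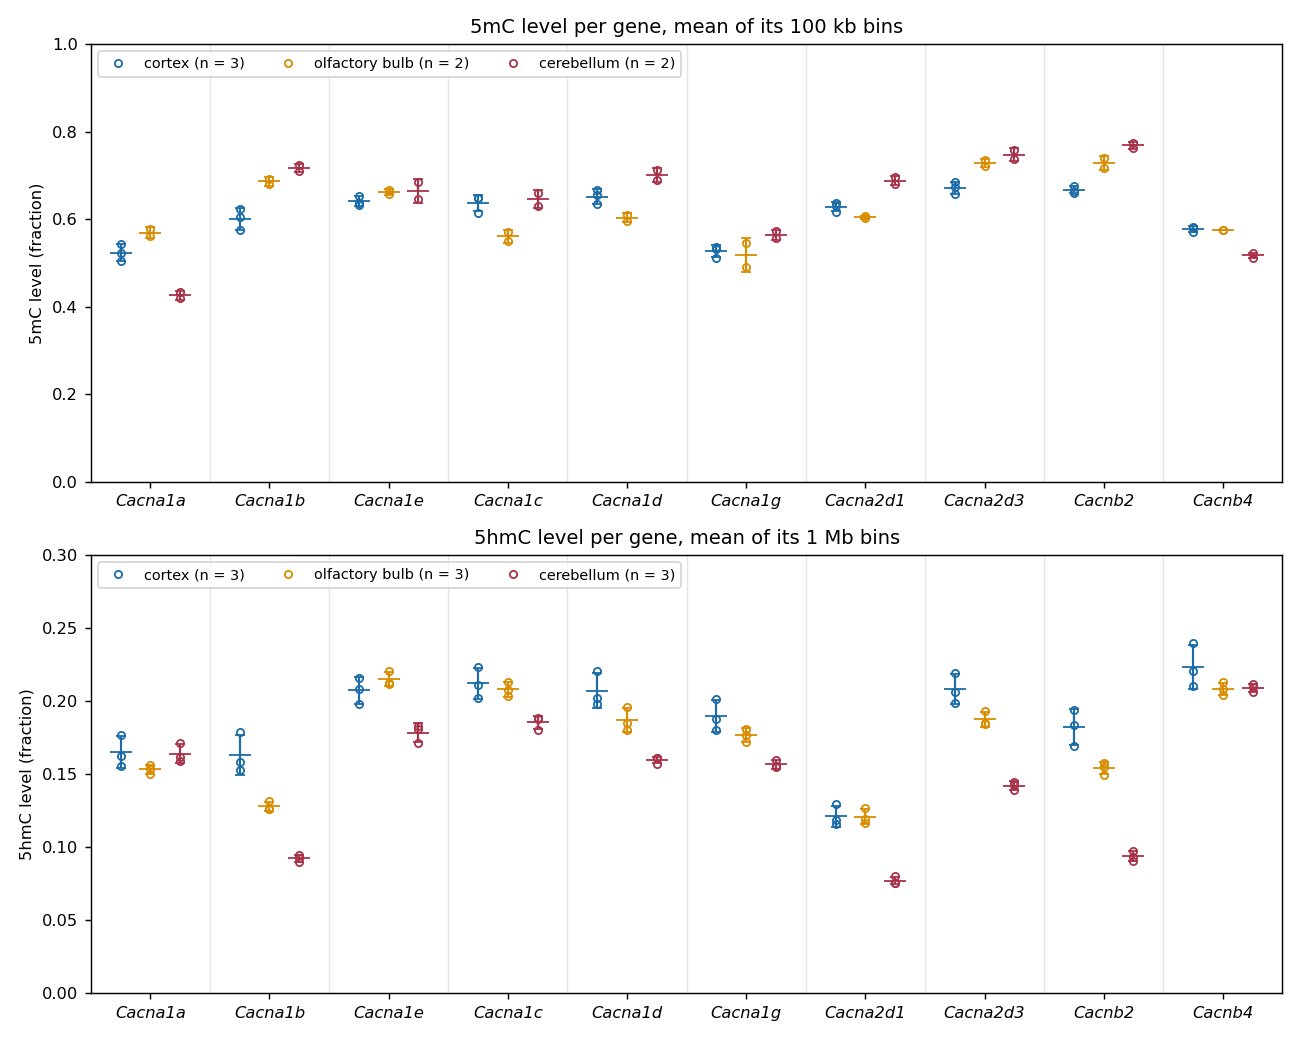
Level of 5mC (top, fraction) and 5hmC (bottom, fraction) for the 10 channel genes in each library, as circles, with the mean (bar) and SD (whiskers) per tissue. In the upper panel both cerebellum libraries of Cacna1a (0.419 and 0.433) and Cacnb4 (0.512 and 0.522) lie under every other library of that gene, and in the lower panel these genes are the 2 whose cerebellum and cortex libraries overlap.

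Of all genes, 27.3% were called in olfactory bulb against cortex, 59.3% in cerebellum against cortex and 25.7% in cerebellum against olfactory bulb, next to 5, 7 and 5 of the 10 members. Among the 2488 genes of at least 100 kb, the length of 9 of the members, the shares were 53.1%, 83.8% and 61.5%, and 6, 7 and 6 of the 9 were called. Beside genes of like length, the members' share of calls was near the background. The median change of all genes was 0.20, 0.29 and 0.08 on the log2(level/(1 − level)) scale in the same order, and that of the members 0.06, 0.27 and 0.24. When each library was centred on its own median bin, the median of all genes became -0.03, -0.12 and -0.10, and the members counted 0 higher and 3 lower, 2 higher and 4 lower, and 3 higher and 2 lower. Over all 21718 genes the counts were then 653 higher and 1075 lower, 2258 and 7681, and 2271 and 6040. The share of calls that are higher thus went from 96.8% to 37.8%, from 92.8% to 22.7% and from 70.0% to 27.3% over all genes. Without olfactory bulb replicate 1 or replicate 2, 2 members in place of 5 were called in olfactory bulb against cortex, and without olfactory bulb replicate 2 or cerebellum replicate 1, 3 in place of 5 in cerebellum against olfactory bulb.

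Cacna1a, the P/Q-type pore (ENSMUSG00000034656.17, chr8:84388440-84640246, plus strand), had 5mC levels of 0.542, 0.505 and 0.523 in the cortex libraries, 0.578 and 0.560 in olfactory bulb, and 0.433 and 0.419 in cerebellum. Both cerebellum libraries were below every library of the other tissues. The change from cortex to cerebellum was -0.56 ± 0.11 (SE) on the log2 scale (adjusted p = 3.23e-05, limma), at rank 117 from the lowest of 21718 genes, and that from olfactory bulb to cerebellum was -0.83 ± 0.12 (adjusted p = 3.05e-07). Both changes kept their sign and stayed past the threshold with each library left out in turn and with centred libraries. Olfactory bulb did not pass the test against cortex (0.27 ± 0.11, adjusted p = 0.0669), but it did with bins weighted by the bases of the gene they cover (0.36, adjusted p = 0.0179) and with the 2 bins wholly inside the gene (0.41, adjusted p = 0.000293).

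The bins called lower in cerebellum than in cortex were the 2 that lie wholly inside the gene. In the bin chr8:84400001-84500000, which lies wholly inside Cacna1a, the level was 0.531, 0.498 and 0.557 in cortex, 0.596 and 0.544 in olfactory bulb, and 0.283 and 0.294 in cerebellum. This bin fell by 1.47 on the log2 scale from cortex to cerebellum (adjusted p = 1.67e-30), the change of rank 14 from the lowest among 25664 bins, and it fell by 1.71 from olfactory bulb (rank 15). The p-value rests on a spread shared by all bins, since limma's prior had 905 degrees of freedom against 4 residual ones. The next bin, also wholly inside the gene, was 0.563 ± 0.0362 for cortex, 0.660 ± 0.00258 for olfactory bulb and 0.468 ± 0.00222 for cerebellum, and it differed between each pair of tissues. The bin that holds the start (0.606, 0.616 and 0.571 as tissue means) and the bin that holds the end (0.395, 0.431 and 0.377) did not pass the test between cortex and the other tissues. The bin that follows the gene, which is covered by other genes, had tissue means of 0.287, 0.436 and 0.175 in the same order, so low cerebellar 5mC was not limited to Cacna1a itself.

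Cacnb4, the β4 subunit (ENSMUSG00000017412.15, chr2:52428320-52676831, minus strand), was the other member with less 5mC in cerebellum. Its levels were 0.580, 0.581 and 0.570 in cortex, 0.575 in both libraries of olfactory bulb, and 0.522 and 0.512 in cerebellum. The cerebellum libraries lay below all others, and cortex and olfactory bulb overlapped. The change was -0.35 ± 0.11 against cortex (adjusted p = 0.00636) and -0.34 ± 0.12 against olfactory bulb (adjusted p = 0.0330). Without cerebellum replicate 2 the first was -0.32 (adjusted p = 0.0609), and the second lost its call in 5 of 7 fits that left out a library, with adjusted p-values from 0.0642 to 0.185. With centred libraries both were called. Of the 3 bins along the gene, the one with the start had no called change (0.578, 0.559 and 0.597 in cortex, olfactory bulb and cerebellum), the middle one was at 0.584, 0.582 and 0.452, and the last at 0.569, 0.584 and 0.501. The middle bin, which holds the first window printed above, changed by -0.77 from cortex to cerebellum (adjusted p = 1.00e-09, rank 113 from the lowest), and the last by -0.39 (adjusted p = 0.00162).

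Cacna1b, the N-type pore that serves transmitter release at many terminals (ENSMUSG00000004113.18, chr2:24603887-24763152, minus strand), showed the opposite order. Its 5mC levels were 0.604, 0.574 and 0.622 in cortex, 0.679 and 0.693 in olfactory bulb, and 0.724 and 0.710 in cerebellum, with no overlap between any of the tissues. It rose by 0.54 ± 0.11 from cortex to olfactory bulb (adjusted p = 0.000490) and by 0.75 ± 0.11 from cortex to cerebellum (adjusted p = 1.97e-07), while the step from olfactory bulb to cerebellum (0.21 ± 0.13, adjusted p = 0.214) did not pass. With centred libraries the first change was 0.32 (adjusted p = 0.129) and the second 0.35 (adjusted p = 0.0338). Both of its bins were higher in either tissue than in cortex.

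Cacnb2, a β subunit of neurons and heart muscle (ENSMUSG00000057914.15, chr2:14603088-14987908, plus strand), followed the same order as Cacna1b. It measured 0.664, 0.676 and 0.661 in cortex, 0.739 and 0.716 in olfactory bulb, and 0.774 and 0.763 in cerebellum, again with no overlap. The rise was 0.41 ± 0.11 from cortex to olfactory bulb (adjusted p = 0.00595), which without olfactory bulb replicate 1 was 0.33 (adjusted p = 0.202), and 0.73 ± 0.11 from cortex to cerebellum (adjusted p = 2.88e-07). The step from olfactory bulb to cerebellum was 0.32 ± 0.12 (adjusted p = 0.0506). All 4 bins were higher in cerebellum than in cortex, and the largest change was in the second bin, from 0.669 ± 0.0136 to 0.816 ± 0.00494, a rise of 1.13 on the log2 scale. With centred libraries the first change was 0.19 (adjusted p = 0.154) and the second 0.32 (adjusted p = 0.00646). The β subunits thus stood further apart in cerebellum, with Cacnb2 at 0.769 and Cacnb4 at 0.517, than in cortex, with 0.667 and 0.577.

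Cacna1e, the R-type pore (ENSMUSG00000004110.16, chr1:154390731-154884501, minus strand), had nearly the same mean in all tissues, with 0.637, 0.653 and 0.633 in cortex, 0.667 and 0.657 in olfactory bulb, and 0.684 and 0.645 in cerebellum. None of its changes per gene passed the test (adjusted p from 0.255 to 0.946), although with centred libraries the change from cortex to cerebellum was -0.26 (adjusted p = 0.0165), and with the bins wholly inside the gene it was 0.29 (adjusted p = 0.00630). The mean hid opposite changes along the gene in cerebellum. The bin with the start was at 0.521 ± 0.0264 in cerebellum, against 0.639 ± 0.0159 for cortex and 0.685 ± 0.00882 for olfactory bulb, a change of -0.70 from cortex to cerebellum (adjusted p = 2.04e-08, rank 138 from the lowest). Bins 3, 5 and 6 from the start were higher in cerebellum than in cortex, by 0.43, 0.48 and 0.62, and the last of them reached 0.808 against 0.733. From the first to the last bin the level thus rose by 0.287 ± 0.00493 in cerebellum, and by 0.0940 ± 0.00575 in cortex and 0.0681 ± 0.0105 in olfactory bulb.

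The L-type pores, which couple depolarization to gene expression in neurons, were the members with less 5mC in olfactory bulb. Cacna1c (ENSMUSG00000051331.15, chr6:118587240-119196418, minus strand) measured 0.648, 0.647 and 0.615 in cortex, 0.571 and 0.550 in olfactory bulb, and 0.660 and 0.631 in cerebellum. The olfactory bulb libraries lay under all others, and cortex and cerebellum overlapped (0.055 ± 0.11, adjusted p = 0.693, against -0.35 with an adjusted p of 0.00204 with centred libraries). The change from cortex to olfactory bulb was -0.46 ± 0.11 (adjusted p = 0.00285), at rank 75 from the lowest of 21718 genes, and that from olfactory bulb to cerebellum was 0.51 ± 0.13 (adjusted p = 0.00138). Without olfactory bulb replicate 2 these were -0.39 (adjusted p = 0.0833) and 0.45 (adjusted p = 0.0619), and without cerebellum replicate 1 the second was 0.42 (adjusted p = 0.0721). The second to the sixth of the 7 bins, a run of 500 kb, were lower in olfactory bulb than in cortex, at tissue means from 0.462 to 0.619 against 0.600 to 0.699. The first bin (0.561 against 0.574) and the last (0.752 against 0.725) did not pass the test. In cerebellum the second bin was also low, at 0.510 ± 0.0124 against 0.600 ± 0.0110 in cortex (adjusted p = 2.22e-05), while the last was high at 0.815.

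Cacna1d (ENSMUSG00000015968.17, chr14:30039939-30491455, minus strand) measured 0.655, 0.666 and 0.634 in cortex, 0.610 and 0.595 in olfactory bulb, and 0.712 and 0.690 in cerebellum, with no overlap between tissues. It fell by 0.30 from cortex to olfactory bulb (adjusted p = 0.0410), a call that was lost in 6 of 7 fits without a library (adjusted p from 0.0528 to 0.255). It was higher in cerebellum by 0.33 ± 0.11 against cortex (adjusted p = 0.0120), which turned to -0.083 (adjusted p = 0.318) with centred libraries and was 0.25 (adjusted p = 0.188) without cerebellum replicate 1. Against olfactory bulb it was higher in cerebellum by 0.63 ± 0.12 (adjusted p = 8.49e-05), a call kept with centred libraries. Bins 2 to 4 of its 5 bins were lower in olfactory bulb than in cortex, and bin 3 had the largest change, from 0.640 ± 0.00998 to 0.531 ± 0.0151 (-0.66 on the log2 scale, adjusted p = 1.38e-06, rank 91 from the lowest of 25664 bins). In both L-type genes the low stretch in olfactory bulb lay inside the gene, past the bin with the start and before the bin with the end.

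Of the α2δ genes, Cacna2d1 (ENSMUSG00000040118.15, chr5:15934691-16374511, plus strand), whose product binds gabapentin, measured 0.637, 0.630 and 0.617 in cortex, 0.607 and 0.602 in olfactory bulb, and 0.695 and 0.680 in cerebellum. The libraries of the tissues did not overlap. The change from cortex to olfactory bulb (-0.14 ± 0.11, adjusted p = 0.312) did not pass, and with centred libraries it was -0.37 (adjusted p = 0.00864). Cerebellum was higher by 0.38 ± 0.11 than cortex (adjusted p = 0.00303), which was -0.025 (adjusted p = 0.777) with centred libraries and 0.34 (adjusted p = 0.0723) without cerebellum replicate 1, and by 0.53 ± 0.12 than olfactory bulb (adjusted p = 0.000820). The level climbed from the first to the last of 5 bins in each tissue, by 0.127 ± 0.0142 for cortex, 0.161 ± 0.0261 for olfactory bulb and 0.198 ± 0.0190 for cerebellum.

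Cacna2d3 (ENSMUSG00000021991.9, chr14:28904943-29721864, minus strand), the longest member at 817 kb and the neighbour of Cacna1d, moved the other way in olfactory bulb. It measured 0.673, 0.685 and 0.658 in cortex, 0.734 and 0.722 in olfactory bulb, and 0.757 and 0.736 in cerebellum, so that cortex lay below the rest. It rose by 0.39 ± 0.11 from cortex to olfactory bulb (adjusted p = 0.00966), which was 0.34 (adjusted p = 0.184) without olfactory bulb replicate 1 and 0.43 (adjusted p = 0.0557) without replicate 2, and by 0.53 ± 0.11 from cortex to cerebellum (adjusted p = 8.32e-05). With centred libraries neither passed (0.16 and 0.12). The second to the seventh of its 9 bins were higher in olfactory bulb than in cortex, at 0.732 to 0.783 against 0.634 to 0.698, while the last 2 were not called (0.703 and 0.654 against 0.696 and 0.672). All 9 bins were higher in cerebellum than in cortex.

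Cacna1g, a T-type pore of low threshold (ENSMUSG00000020866.17, chr11:94408391-94474198, minus strand), is 65.8 kb long and lies in 1 bin of 100 kb with 16.89 CpG sites per kb. Its levels were 0.511, 0.532 and 0.537 in cortex, 0.545 and 0.491 in olfactory bulb, and 0.572 and 0.556 in cerebellum. Cerebellum lay above the other libraries, but no change passed the test (0.22 ± 0.12 against cortex, adjusted p = 0.0980; 0.27 ± 0.13 against olfactory bulb, adjusted p = 0.113). Without cortex replicate 3 both did (adjusted p = 0.0415 and 0.0408), while with centred libraries the first turned to -0.19 (adjusted p = 0.177).

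**Figure D2:**
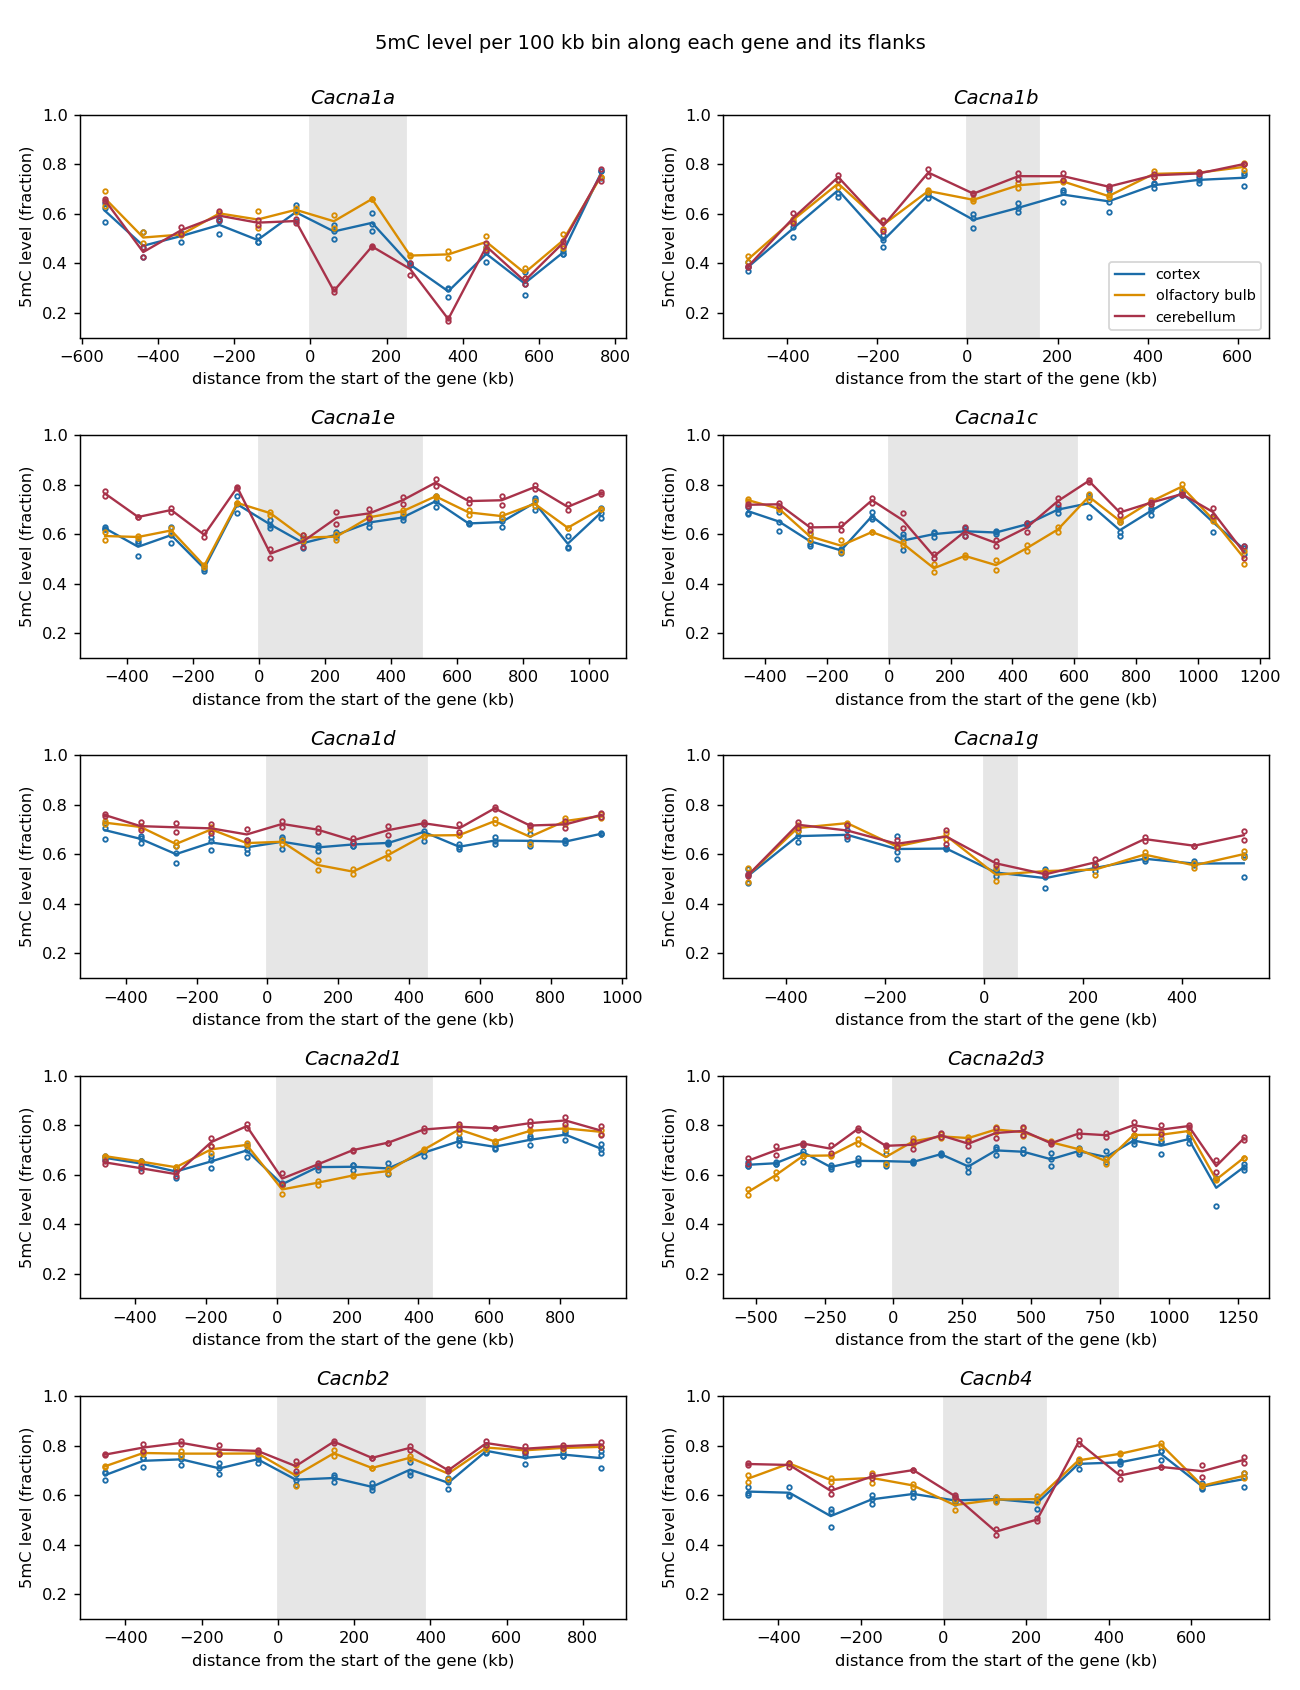
5mC level (fraction) of each 100 kb bin along the 10 channel genes and their flanks, against the distance of the bin's middle from the start of the gene in kb, read in the direction of transcription. Circles are libraries, lines join tissue means and grey marks the gene. Cerebellum dips inside Cacna1a and Cacnb4 and at the start of Cacna1e, and olfactory bulb dips inside Cacna1c and Cacna1d.

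Over all 46 bins, 22 were called in olfactory bulb against cortex (13 higher and 9 lower, of the 39.7% of all bins called), 34 in cerebellum against cortex (27 and 7, with 76.4%) and 30 in cerebellum against olfactory bulb (24 and 6, with 43%). The last count was 19 without cerebellum replicate 1. With centred libraries the split was 10 higher and 18 lower, 10 and 16, and 18 and 11. Over all 25664 bins it was then 2261 higher and 2541 lower, 6606 and 6235, and 5671 and 5459. In the first and second of these comparisons that is 18.7% and 50% of all bins called. The 9 bins that were lower in olfactory bulb than in cortex lay in Cacna1c (5), Cacna1d (3) and Cacna2d1 (1, which had an adjusted p of 0.143 without olfactory bulb replicate 1), and the 7 that were lower in cerebellum than in cortex lay in Cacna1a, Cacna1c and Cacnb4 (2 each) and Cacna1e (1). The bin with the end of the gene was above the bin with the start in 7 of the 9 genes that have several bins, in each tissue, with Cacna1a an exception in all of them. The lowest bin was the one with the start in 3 of 9 genes for cortex, 4 for olfactory bulb and 5 for cerebellum. Such counts along the gene were not made for other genes, so they cannot be read as particular to the channel genes.

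To set each gene apart from the region around it, the mean 5mC level of the flanks was subtracted from that of the gene in each library. An equal shift in level over a whole library cancels in this difference, while a shift on the log2 scale need not. Limma was run on the difference over 21718 genes. Cacnb4 in cerebellum had the largest difference of the 10, with values of -0.196 and -0.188 in the cerebellum libraries, -0.123 and -0.124 in olfactory bulb, and -0.0778, -0.0684 and -0.0579 in cortex. The gene lay below its flanks everywhere, and the tissues did not overlap. The change from cortex to cerebellum was -0.124 ± 0.0102 (SE) on the fraction scale (adjusted p = 0.000113), at rank 158 from the lowest of all genes. Cacna1a went from above its flanks in cortex (0.0490, 0.00203 and 0.0519) to below them in cerebellum (-0.0778 and -0.0697), a change of -0.108 ± 0.0152 (adjusted p = 0.00151). Cacna1e also turned from above (0.0195 ± 0.0109) to below (-0.0609 ± 0.0155), by -0.0804 ± 0.0114 (adjusted p = 0.00158). These 3 changes held with each library left out.

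Of the members, the L-type genes changed most against their flanks from cortex to olfactory bulb. Cacna1d changed by -0.0974 ± 0.00935 from cortex to olfactory bulb (adjusted p = 0.00128), at rank 67 from the lowest of all genes, and Cacna1c by -0.0907 ± 0.0103 (adjusted p = 0.00252), at rank 101. Both held with each library left out. Part of the flank of Cacna1d is Cacna2d3, which was high in olfactory bulb, and part of the flank of Cacna2d3 is Cacna1d. Cacna2d1 (-0.0536 ± 0.00974, adjusted p = 0.0152) and Cacnb4 (-0.0559 ± 0.0102, adjusted p = 0.0155) were also lower, and Cacna2d3 was higher (0.0443 ± 0.00994, adjusted p = 0.0338). Without olfactory bulb replicate 1 or replicate 2 the calls of these last 3 genes were lost (adjusted p from 0.0688 to 0.150), without cortex replicate 1 so were those of Cacna2d1 (0.0505) and Cacna2d3 (0.0948), and Cacna2d3 lost its call in 6 of 7 such fits. With flanks of 200 kb the change of Cacna2d3 was 0.00856 (adjusted p = 0.727).

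In all, 5 of 10 were called in olfactory bulb against cortex (1 higher and 4 lower, where 5.84% of all genes were called), 6 in cerebellum against cortex (2 and 4, with 22.9%) and 7 in cerebellum against olfactory bulb (3 and 4, with 20.9%). These shares cover genes of every length. Shares for genes of at least 100 kb are not given for this difference, so no excess of the members can be read from the counts. Without olfactory bulb replicate 1 or 2, 2 were called in the first comparison, and without cortex replicate 1, cerebellum replicate 1 or cerebellum replicate 2, 3 were called in the second. The other calls of cerebellum against cortex were Cacna1b (0.0666 ± 0.0207, adjusted p = 0.0468) and Cacnb2 (0.0498 ± 0.0128, adjusted p = 0.0231), both higher, and Cacna1c (-0.0352 ± 0.0103, adjusted p = 0.0365). Cacna1b lost its call in 6, Cacna1c in 4 and Cacnb2 in 3 of the 7 fits without a library.

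**Figure D3:**
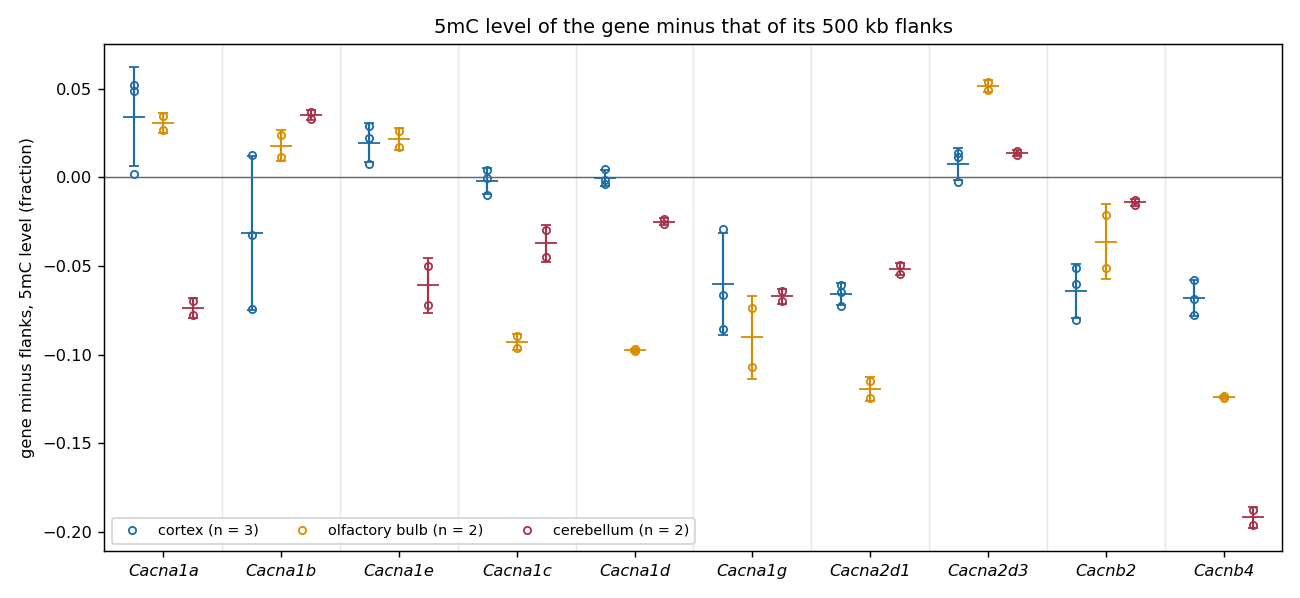
5mC level of each gene minus that of its 500 kb flanks (fraction), with circles for libraries, a bar for the mean and whiskers for the SD. Values under 0 mean less 5mC in the gene than around it, with Cacnb4 in cerebellum lowest at -0.192 and Cacna2d3 in olfactory bulb highest at 0.0517.

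The 5hmC level is the mean over the 1 Mb bins that overlap a gene, of which between 6.58% (Cacna1g) and 49.4% (Cacna1e) is the gene itself, so it describes the neighbourhood as much as the gene. In cortex the levels ranged from 0.121 ± 0.00736 (Cacna2d1) to 0.223 ± 0.0149 (Cacnb4). The Cacna2d1 level is the plain mean of a bin at 0.0637, which holds 65310 bases of the gene, and one at 0.178, which holds 374511. In cerebellum, where 5hmC was lower over most of the genome, 8 of 10 members were lower than in cortex (98.6% of all genes were called) and Cacna1a and Cacnb4 were not called. In olfactory bulb against cortex 4 were lower (Cacna1b, Cacnb2, Cacna2d3 and Cacna1d, where 79% of all genes were called), and in cerebellum against olfactory bulb 8 were lower (89%), again all but Cacna1a and Cacnb4. With bins weighted by the bases of the gene they cover, Cacna2d3 was not called in the last comparison (-0.082, adjusted p = 0.256, in place of -0.48). The median change of the members on the log2 scale was -0.13, -0.39 and -0.30 for olfactory bulb against cortex, cerebellum against cortex and cerebellum against olfactory bulb, and that of all genes was -0.27, -0.76 and -0.50. Without olfactory bulb replicate 3, 2 members were called in the first comparison, and without cortex replicate 3, 7 were.

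For Cacna1a the 5hmC level was 0.162, 0.177 and 0.156 in cortex, 0.153, 0.156 and 0.150 in olfactory bulb, and 0.159, 0.161 and 0.171 in cerebellum, with cortex and cerebellum overlapping (-0.01 ± 0.07, adjusted p = 0.880). The change of 99.4% of all genes was lower. The 1 Mb bins on either side of it were at 0.116 ± 0.00179 and 0.102 ± 0.00283 in cerebellum, and at 0.169 ± 0.0104 and 0.169 ± 0.0133 in cortex. For Cacnb4 the level was 0.221, 0.240 and 0.210 in cortex, 0.204, 0.213 and 0.208 in olfactory bulb, and 0.210, 0.206 and 0.212 in cerebellum (-0.12 ± 0.07 against cortex, adjusted p = 0.0924), and the change of 98.7% of genes was lower. Its neighbouring bins were at 0.0968 ± 0.00489 and 0.0919 ± 0.00219 in cerebellum and at 0.178 ± 0.00945 and 0.183 ± 0.00935 in cortex. The bins beside both genes fell from cortex to cerebellum past the threshold, and the bins with the genes did not pass it, except that Cacnb4 was called without cortex replicate 3 (-0.17, adjusted p = 0.0159), on the fraction scale (adjusted p = 0.0134) and with a trended, robust spread (adjusted p = 0.0435). For Cacnb4 the difference of the gene's bin from its flanking bins went from 0.0428 ± 0.00638 in cortex to 0.115 ± 0.00166 in cerebellum, and for Cacna1a from -0.00407 ± 0.00121 to 0.0551 ± 0.00539. It also rose for Cacna1e, from -0.00587 ± 0.00219 to 0.0352 ± 0.00410. It fell for Cacna1b, Cacna1d, Cacna1g, Cacna2d3 and Cacnb2, most for Cacna1g, from 0.000127 ± 0.000562 to -0.0563 ± 0.00381. This difference was not tested.

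Among the members, the largest losses of 5hmC from cortex to cerebellum were those of Cacnb2 and Cacna1b. Such falls were common, with a median change of -0.76 over all genes. The change of 22.4% of all genes was lower than that of Cacnb2, and that of 34.3% was lower than that of Cacna1b. With centred libraries Cacnb2 was at -0.07 and Cacna1b at 0.11. Cacnb2 measured 0.184, 0.194 and 0.169 in cortex, 0.149, 0.157 and 0.155 in olfactory bulb, and 0.0933, 0.0903 and 0.0971 in cerebellum, and it fell by 1.11 on the log2 scale from cortex to cerebellum (adjusted p = 2.64e-55). Cacna1b measured 0.158, 0.179 and 0.153 in cortex, 0.126, 0.131 and 0.126 in olfactory bulb, and 0.0924, 0.0896 and 0.0947 in cerebellum, and it fell by 0.94 (adjusted p = 5.58e-40). No libraries overlapped between tissues in either gene. Cacna2d1 (-0.72) and Cacna2d3 (-0.67) came next, then Cacna1d (-0.46), Cacna1g (-0.33), Cacna1e (-0.27) and Cacna1c (-0.24), each past the threshold. These p-values assume 1 spread for all genes, since the prior of limma had infinite degrees of freedom.

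Along the longer genes the 1 Mb bins differed. Over the 13 bins, 5 were called in olfactory bulb against cortex, 11 in cerebellum against cortex and 9 in cerebellum against olfactory bulb, all lower, where 70.9%, 98.1% and 93% of all bins were called. Without cortex replicate 3, 8 were called in the first comparison, and without olfactory bulb replicate 1 or 3, 3 were. Cacna2d3 lies in a pair of bins, and the one with most of the gene, which it shares with the flank of Cacna1d, went from 0.205 ± 0.0108 in cortex to 0.165 ± 0.00405 in olfactory bulb and 0.169 ± 0.00560 in cerebellum. The other one, which holds its end, was at 0.211 ± 0.00984, 0.210 ± 0.00600 and 0.115 ± 0.00140. For Cacna1c both bins fell from cortex to cerebellum, from 0.222 to 0.191 and from 0.202 to 0.179.

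The direction of the 5hmC changes depended on the reference. On the level itself 8 members were lower in cerebellum than in cortex and none was higher, but with each library centred on its median bin 9 of 10 were higher and only Cacnb2 was lower (-0.07, adjusted p = 0.0317), where 69.1% of all genes were called higher. In olfactory bulb against cortex 8 were then higher and Cacna1b lower (29.6% of all genes called higher), and in cerebellum against olfactory bulb 9 were higher and none lower (72.6%). Centring moved the median of all genes to -0.03, 0.28 and 0.30, and the share of calls that are higher from 1.35% to 43.5% in olfactory bulb against cortex, from 0.126% to 75.6% in cerebellum against cortex and from 1.14% to 79.3% in cerebellum against olfactory bulb. Cacna1a and Cacnb4, which were not called on the level itself, were among the 9.

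The sum of both marks was close between tissues for most members, with 5mC averaged over the same 1 Mb bins. For Cacnb4 it was 0.853, 0.873 and 0.854 in cortex, olfactory bulb and cerebellum, and for Cacna1b 0.821, 0.835 and 0.820. Cacna1a had the lowest sum in each tissue (0.635 ± 0.0141, 0.679 ± 0.0120 and 0.601 ± 0.0142, where the error combines the SDs of both assays). The share of the sum that was 5hmC differed more. It was 26.0%, 22.6% and 27.3% for Cacna1a and 26.2%, 23.9% and 24.5% for Cacnb4, and it went from 20.9% to 17.3% and 10.9% for Cacnb2 and from 19.9% to 15.3% and 11.2% for Cacna1b. Over all 1 Mb bins the share was 19.4%, 17.0% and 11.5%. The share was above that of the genome by more than 4 percentage points for 7 members in cortex and in cerebellum and for 6 in the bulb. How many of all bins pass that margin is not given, so the counts cannot be read as particular to the channel genes. In cerebellum Cacna1b, Cacnb2 and Cacna2d1 (9.62%) lay below the share of the genome, and the value of Cacna2d1 includes a bin that holds little of the gene.

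Set side by side, the changes of both marks from cortex to cerebellum ran in opposite order over the 10 genes. The genes with the lowest 5mC change, Cacna1a and Cacnb4, had the highest 5hmC change, and those with the highest 5mC change, Cacna1b and Cacnb2, had the lowest 5hmC change. Over the 10 genes Pearson's r was -0.926 and Spearman's rho -0.976, against -0.439 and -0.420 over the 2488 genes of at least 100 kb. From cortex to olfactory bulb the members had r of -0.613 and rho of -0.636, against -0.517 and -0.503. From olfactory bulb to cerebellum r was -0.638 and rho -0.479, against -0.492 and -0.473. The marks come from separate libraries, but Cacna1d and Cacna2d3 lie in neighbouring 1 Mb bins and all genes share the same libraries. These are therefore descriptions, and no test was made.

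**Figure D4:**
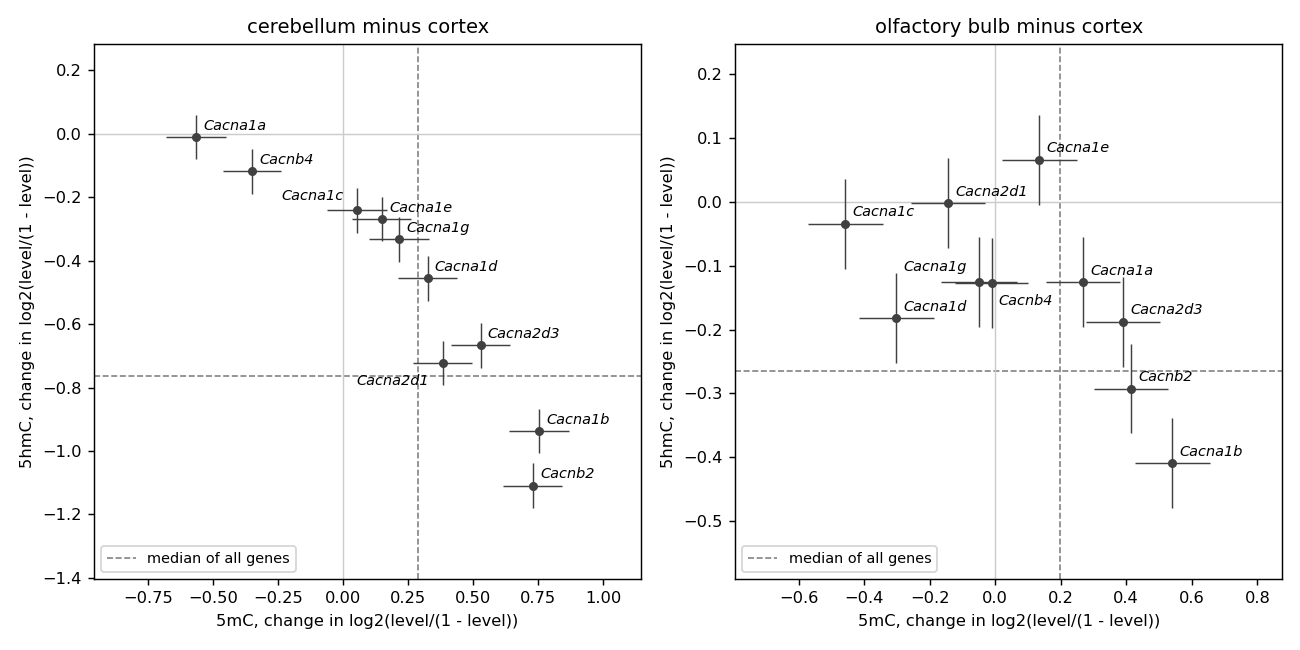
Change in 5mC (horizontal) against change in 5hmC (vertical) of each channel gene, both on the log2(level/(1 − level)) scale with SE bars, from cortex to cerebellum (left) and to olfactory bulb (right). Dashed lines mark the median of all genes (0.29 for 5mC and -0.76 for 5hmC on the left). On the left the genes run from Cacna1a at the upper left to Cacnb2 at the lower right. With libraries centred on their median, the 5hmC changes were positive on the left in all genes but Cacnb2 and on the right in all but Cacna1b and Cacnb2, and on the left the 5mC changes of Cacna1c, Cacna1d, Cacna1e, Cacna1g and Cacna2d1 turned negative.

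The other genes of the channel families were read in the same fits. Of 16 genes for further α1, α2δ, β and γ subunits, 0 were higher and 1 lower in 5mC in olfactory bulb against cortex, 11 higher and 1 lower in cerebellum against cortex, and 9 higher and 0 lower in cerebellum against olfactory bulb (of all genes 27.3%, 59.3% and 25.7% were called), with median changes of 0.06, 0.41 and 0.36. In olfactory bulb the gene with less 5mC was Cacng5, an auxiliary AMPA receptor subunit of the γ family (0.665 ± 0.0160 in cortex and 0.539 ± 0.0109 in olfactory bulb, -0.77, adjusted p = 1.23e-06). The largest rises in cerebellum against cortex were those of Cacng3, which also encodes an auxiliary AMPA receptor subunit (0.616 ± 0.0154 to 0.744 ± 0.00292), and Cacna1s, the L-type pore of skeletal muscle (0.585 ± 0.00748 to 0.686 ± 0.0156). Cacng2, or stargazin, which carries AMPA receptors to the synapse in cerebellar granule cells, was the one that fell (0.577 ± 0.00770 to 0.533 ± 0.0218, -0.26, adjusted p = 0.0458). Between olfactory bulb and cerebellum the largest rises were again those of Cacng5 and Cacng3. In 5hmC, 11, 16 and 15 of the 16 were lower in the same order of comparisons, and none was higher, where 79%, 98.6% and 89% of all genes were called.

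Of 20 genes whose products bind the channels or act on the calcium they admit, 5 were higher and 1 lower in 5mC in olfactory bulb against cortex, 11 and 2 in cerebellum against cortex, and 9 and 2 in cerebellum against olfactory bulb, beside the same 27.3%, 59.3% and 25.7% of all genes. Camk2a, a calcium-dependent kinase of forebrain excitatory neurons, rose most in cerebellum (0.659 ± 0.00489, against 0.490 ± 0.0239 for cortex and 0.473 ± 0.0220 for olfactory bulb), followed by the calcium-activated potassium channel Kcnma1 (0.619 ± 0.00861 in cortex to 0.757 ± 0.0104). Camk2b, the kinase form found in cerebellar neurons too, was lower there than in cortex (0.502 ± 0.0133 against 0.553 ± 0.0150), as was the sodium-calcium exchanger gene Slc8a2 (0.417 ± 0.0181 against 0.462 ± 0.0141). Rims1, a scaffold that tethers channels at release sites, was high in olfactory bulb (0.742 ± 0.00573) and at 0.632 ± 0.0170 in cortex and 0.629 ± 0.0101 in cerebellum, and Slc8a2 was high in olfactory bulb too (0.563 ± 0.00776), where Camk2b was lower than in cortex (0.500 ± 0.0101). Between olfactory bulb and cerebellum Camk2a and Slc8a1 (0.625 ± 0.00229 to 0.748 ± 0.0117) rose most, and Slc8a2 and Rims1 fell most. In 5hmC, 10, 19 and 19 of the 20 were lower, and 1 was higher in cerebellum against olfactory bulb, beside 79%, 98.6% and 89% of all genes called.

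For the members with the widest range of tissue means in 5mC, the genes of at least 100 kb with the most similar levels were listed by the Euclidean distance over the 7 oxBS-seq libraries, leaving out genes within 5 Mb. Cacna1a (range 0.143) was closest to Coro2b (distance 0.0669; 0.551, 0.587 and 0.449 in cortex, olfactory bulb and cerebellum), Mgll (0.0837) and Nrg2 (0.0985), out of 2479 genes. Cacna1b (range 0.117) was closest to Epha7 (0.0441), Pcdh9 (0.0448) and Elavl4 (0.0452), and Cacnb2 (range 0.102) to Ptprt (0.0236), Kif16b (0.0240) and Mamdc2 (0.0247). The nearest gene to Cacna1a was thus farther from it than the third nearest of either other member.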

How the data were processed

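OxBS-seq (7 libraries) and TAB-seq (9 libraries) data of 3 brain tissues were used, and the 6 RNA-seq samples of the series were not analysed here. Alignment by the authors was with Bismark against mm10 and kept unique hits, a binomial test picked the modified sites among those covered at least 5 times, and they deposited the level of each bin and library as a fraction from 0 to 1. How reads or sites were combined within a bin, and the tool versions, were not given in the sources used here. Coverage was not in the tables used, so the depth is unknown.

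Bins at 0 or 1 in any library were left out (663 of 26327 for 5mC and 60 of 2641 for 5hmC, none of them over a channel gene). Levels were averaged over the bins of each gene and tested between tissues as log2(level/(1 − level)) with limma 3.58.1 in R 4.3.3, all tissues in one fit, with Benjamini-Hochberg adjustment over all bins or genes and a threshold of 0.05. The difference of gene and flanks was fitted on the fraction scale. A change is the first named tissue's minus the second's mean. The fits were checked on simulated data. In 5hmC, deviations from the tissue means of same-numbered cortex and olfactory bulb libraries correlated (r of 0.126, 0.344 and 0.250). Differently numbered libraries of these tissues had r from -0.287 to -0.0188, and same-numbered libraries with cerebellum from -0.229 to 0.0743. Deviations cancel out within a tissue, so positive same-numbered values make the differently numbered ones negative on balance. Cerebellum 2 also correlated with olfactory bulb 3 (0.299) and cortex 3 (0.242). The labels state no pairing, and these values do not settle one. Alternatives changed the scale, centring, filter, spread, weighting, gene span, flank width, replicate block and libraries. Of the other subunit and partner genes, the 2 largest rises and falls past the threshold in each comparison are named. The members, lists and tests were chosen with earlier results of these data known.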

Additional observations from a re-analysis of the deposited data

How the results depend on the processing

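The levels carry no depth, and each 5mC comparison rests on 2 libraries in at least one tissue, so that where one is left out the other is assumed to vary like the rest. Centring each library on its median gave 18.7% and 50% of 5mC bins called in olfactory bulb and in cerebellum against cortex, 11 of 13 channel gene bins called in 5hmC in olfactory bulb against cortex, and 3 members and 7.96% of genes called in 5mC and 9 members in 5hmC in that comparison. It reversed the 5mC change from cortex to cerebellum of Cacna1e (-0.26), Cacna1c (-0.35), Cacna1d (-0.083) and Cacna2d1 (-0.025), and it turned the sign of that of Cacna1g (-0.19), which was called in neither fit. It also reversed the 5hmC change from cortex to olfactory bulb of Cacna1a (0.11), Cacna1c (0.21), Cacna1d (0.059), Cacna1g (0.11), Cacna2d1 (0.24), Cacna2d3 (0.053) and Cacnb4 (0.11), from cortex to cerebellum of Cacna1a (1.03), Cacna1b (0.11), Cacna1e (0.77), Cacna1c (0.80), Cacna1d (0.59), Cacna1g (0.71), Cacna2d1 (0.32), Cacna2d3 (0.38) and Cacnb4 (0.92), and from olfactory bulb to cerebellum of Cacna1b (0.27), Cacna1e (0.47), Cacna1c (0.59), Cacna1d (0.53), Cacna1g (0.59), Cacna2d1 (0.082) and Cacna2d3 (0.32). Centring subtracts one value from every bin of a library on the log2(level/(1 − level)) scale. It was not run for the difference of gene and flanks, in which only an equal shift in level cancels. The fraction scale gave 8 bins and 7 members called in 5hmC in olfactory bulb against cortex, and keeping all bins with levels held just off 0 and 1 gave 23.1% of 5mC bins. With bins wholly inside the gene, which leaves out Cacna1b and Cacna1g, 54.1% of genes were called in 5mC in olfactory bulb against cortex and 67% in cerebellum against olfactory bulb, and with genes of at least 100 kb 53.1% and 61.5%, fewer genes being tested in both. Flanks of 200 kb gave 3.63% of genes in olfactory bulb against cortex and 4 members in cerebellum against olfactory bulb, and the cause was not tested for these or the other settings.

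In 5mC, deviations of same-numbered libraries had correlations from -0.0906 to 0.0158 over 6 pairs. By the numbers in the library names these were from -0.00129 to 0.0725 over 5 pairs. With 2 libraries in olfactory bulb and in cerebellum, the deviations within each of these tissues mirror each other. The values therefore do not settle whether the samples were paired. In 5hmC, same-numbered cortex and olfactory bulb libraries correlated, but so did some cerebellum libraries with those of another number. There the replicate block over the 3 tissues changed no call of a member per gene. In 5mC with the replicate block, 3 members and 3.61% of genes were called for gene minus flanks in olfactory bulb against cortex. With a replicate block by the numbers in the library names, these were 3 and 2.21%, with 11.6% in cerebellum against olfactory bulb, and 41.3% of genes were called in 5mC per gene in olfactory bulb against cortex.

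Leaving out each library in turn, the calls in olfactory bulb against cortex ranged from 3 to 8 bins and from 2 to 7 members in 5hmC, from 2 to 5 members and 4.75% to 30.8% of genes in 5mC, from 13% to 39.7% of 5mC bins, and from 2 to 6 members and 1.34% to 5.06% of genes for gene minus flanks. In cerebellum against cortex they ranged from 33.3% to 59.5% of genes in 5mC, and from 3 to 6 members and 7.56% to 22.2% of genes for gene minus flanks. In cerebellum against olfactory bulb they ranged from 19 to 36 channel gene bins and 22.7% to 51.8% of all bins, from 3 to 7 members and 11.3% to 36.9% of genes in 5mC, and from 8.44% to 24% of genes for gene minus flanks.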
